A study of Mus musculus with 15 samples.

Results

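Poly(A) RNA of 2 mouse libraries with the genotype label ha was compared with that of 2 libraries with the genotype label EF, all from experiment 2 and 4 of the 15 libraries of the series. The members were taken from the genotype labels alone. The design text writes the 3 groups of experiment 2 as EFPrx1, ha-EFPrx1 and hr-EFPrx1, so every library used here, the 2 of EF and the 4 of hr included, carries the name EFPrx1. In the titles, ha goes with Combi and T1 or T2, hr with Combi and uns, and EF with neither. The sources used here do not say what ha, hr, Combi, T and uns stand for. All titles carry the number 221, and no label gives a treatment, a sex, an age or a time, or says whether the libraries of a group came from separate cultures, clones or animals. The p-values below therefore rest on the differences between these libraries alone, and these may be technical. The cells are labelled MSCLCs, which is not spelled out; bone mesenchymal stem cells stand in the series title.

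Mesenchymal stem or stromal cells of bone are spindle-shaped, matrix-producing cells that can give rise to osteoblasts, chondrocytes and adipocytes. EWS::FLI1 is the fusion transcription factor of Ewing sarcoma, a tumour of bone and soft tissue, and mesenchymal cells are among its proposed cells of origin. YAP1 is the transcriptional coactivator that the Hippo kinases keep out of the nucleus, and with TEAD factors it drives genes of proliferation, adhesion and matrix. IGF-1 is a growth factor that acts through the receptor Igf1r. The table of counts has no entry for the fusion itself, so its level is not measured here.

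The 8 libraries of experiment 2 shared 1 flowcell and lane and held 11195371 to 16378368 counts each, 11195371 and 12594472 in EF and 14297215 and 16378368 in ha. Mitochondrial genes took 2.89% to 4.09% of the counts. Pairs of libraries were set against counting noise, as the median over genes of the squared difference divided by that expected from counting alone. This ratio was 1.3 for the EF pair and 21.3 for the ha pair, and between 70.1 and 81.1 for EF against ha. Between hr libraries whose titles carry unlike numbers after uns it was 16.4 to 17.8, near the 17 to 19.6 of hr against EF. The main fit below took the 4 hr libraries as 1 group, so this difference is part of its estimate of the spread. The EF libraries, like each hr pair whose titles share the number after uns (1.27 and 1.28), thus differed by little more than counting noise. The sources used here do not say whether they are repeat libraries of 1 culture. In a second fit the EF pair and both hr pairs were therefore summed, which leaves 1 EF library against 2 ha libraries, and calls of this fit are given beside the main ones for the named genes and the lists. Some named genes were picked because their calls held in more of the settings tried. That their calls held follows in part from this choice and is no measure for other genes. Of the 9504 genes whose mean reached 10 CPM (counts scaled to library size, normalised by TMM), 26 (0.274%) differed more than 2-fold between the EF libraries and 504 (5.30%) between the ha libraries.

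Of 13998 genes tested, 5961 (42.6%) differed between ha and EF at an adjusted p under 0.05 (edgeR's quasi-likelihood test with Benjamini-Hochberg adjustment), 3214 higher in ha (23.0%) and 2747 lower (19.6%). The higher genes moved further than the lower ones. Among the called genes, the median size of the log2 fold change was 1.35 for the higher and 0.93 for the lower, and 737 higher against 167 lower genes passed a log2 fold change of 3. With the pairs summed, 736 of 15959 genes (4.61%) were called, 438 higher (2.74%) and 298 lower (1.87%), and 734 of them were also called in the main fit. Without EF library 1 the count was 3070, and without EF library 2 it was 3106. Of the called genes, 141 had a count of 0 in both EF libraries and 37 had a count of 0 in both ha libraries; fold changes fitted to such genes are not measured sizes, and lower bounds are given for those that are named. The median log2 fold change over all genes tested was 0.05, the value against which the list medians below are set. Summing the pairs or leaving out either EF library lowered the number of calls over all genes. Fewer calls of a list in those fits are therefore not by themselves a trait of that list.

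**Figure D1:**
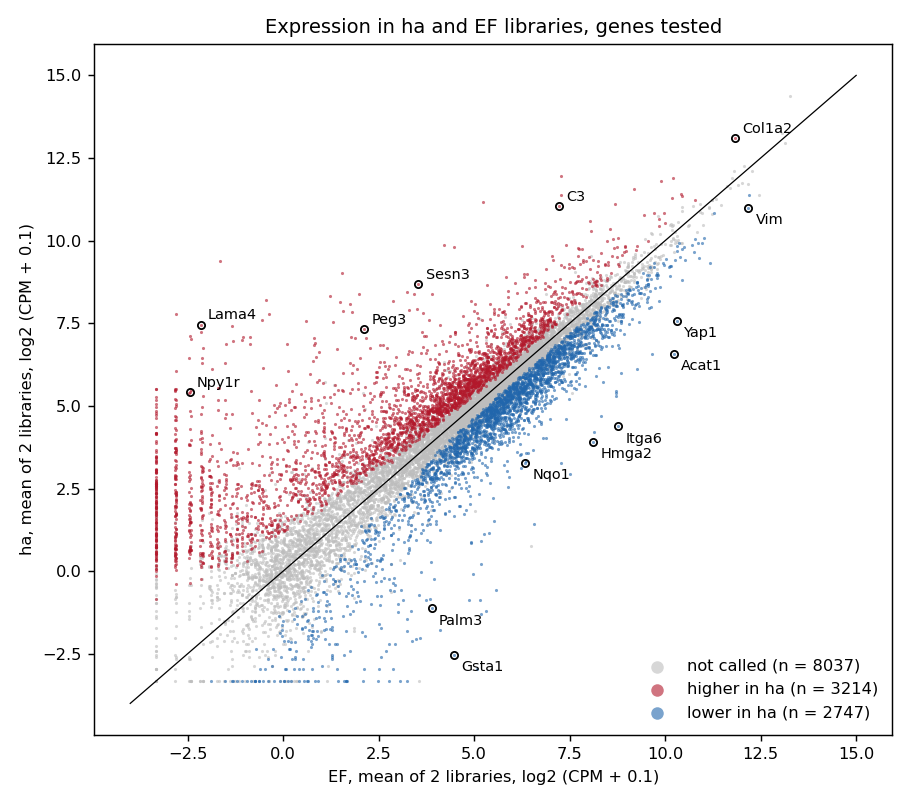
Mean expression of each of the 13998 tested genes in the 2 EF libraries (horizontal axis) and the 2 ha libraries (vertical axis), both as log2 of CPM plus 0.1; red points are the 3214 genes called higher in ha, blue points the 2747 called lower and grey points the rest. Red points reach farther from the diagonal than blue ones, and many of them stand at the left edge, where EF counts were at or near 0.

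The largest increases included genes with no count in EF. Bcl11a, a zinc finger repressor best known from fetal globin silencing, had a count of 0 in both EF libraries and stood at 17.5 and 37.3 CPM in ha, at least 226-fold higher (139-fold for the lower ha library) against a floor of 3 counts over the EF pair (edgeR adjusted p = 0.00045). Klhl13, an adaptor of a cullin ubiquitin ligase, stood at 22.8 and 30.1 CPM in ha and was at least 213-fold higher (edgeR adjusted p = 0.0034). The ha libraries were far apart for Lrrn1, a leucine-rich repeat membrane protein, at 9.22 and 39.8 CPM, against no count in EF, at least 208-fold higher (73.1-fold for the lower ha library) (edgeR adjusted p = 0.00246). Among the largest decreases, the non-coding gene AI662270 went from 34.6 and 37.6 CPM in EF to 0.146 and 0.471 CPM in ha (log2 fold change -6.76 ± 0.41, edgeR adjusted p = 8.42e-05). Adgrf5, an adhesion G protein-coupled receptor, went from 30.1 and 33.0 to 0.439 and 1.24 CPM (log2 fold change -5.17 ± 0.41, edgeR adjusted p = 0.000219). Palm3, a paralemmin of the membrane, fell from 15.3 and 14.2 to 0.658 and 0.0589 CPM (log2 fold change -5.42 ± 0.58, edgeR adjusted p = 0.000572). With the EF pair and the hr pairs summed, Bcl11a, Klhl13, Lrrn1, AI662270, Adgrf5 and Palm3 kept an adjusted p under 0.05 (edgeR adjusted p 0.0168 to 0.0472). All 6 calls held without any 1 of the 4 libraries (edgeR adjusted p up to 0.0248).

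Ranked by the difference of CPM in place of the fold change, 4 of the 10 largest increases were members of the collagen list and 3 of the list of matricellular proteins and proteoglycans, counts that were made after the values were seen. Col3a1, a fibrillar collagen of soft tissue, rose from 151 and 157 to 4318 and 3624 CPM (log2 fold change 4.69 ± 1.29, edgeR adjusted p = 0.0221). Dcn, the proteoglycan decorin, rose from 38.0 and 36.9 to 2025 and 2611 CPM (log2 fold change 5.95 ± 1.48, edgeR adjusted p = 0.0147). Bgn, the small proteoglycan biglycan, stood at 1192 and 1184 CPM in EF and 3679 and 3954 CPM in ha (log2 fold change 1.68 ± 0.13, edgeR adjusted p = 0.000181). Complement C3, a secreted protein of innate immunity, rose from 146 and 151 to 2619.6 and 1594 CPM (log2 fold change 3.83 ± 0.24, edgeR adjusted p = 9.68e-05). Nedd4, a ubiquitin ligase, and Lrp1, an endocytic receptor, were high in both groups and rose further. Nedd4 went from 1373 and 1366 to 2959 and 2473 CPM (log2 fold change 0.99 ± 0.19, edgeR adjusted p = 0.00554). Lrp1 rose from 1150.5 and 1158 to 2781 and 2221 CPM (log2 fold change 1.12 ± 0.33, edgeR adjusted p = 0.0303). Summing the EF and hr pairs left C3 past the threshold (edgeR adjusted p = 0.0257). Col3a1, Dcn, Bgn, Nedd4 and Lrp1 fell short of it (adjusted p 0.0546 to 0.194). Col3a1, Dcn and Lrp1 were not called without EF library 1 or without EF library 2 (edgeR, adjusted p 0.0968 to 0.134). Without ha library 1, Col3a1 and Lrp1 missed the threshold (edgeR, adjusted p 0.0554 to 0.115).

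The 10 largest losses of CPM were those of Vim, Actb, Mcl1, Ncl, Acat1, Yap1, Col6a3, Plec, Ftl1 and Hspd1. Col6a3, a chain of microfibrillar collagen VI, fell from 1987 and 2035 to 1042 and 918 CPM (log2 fold change -1.04 ± 0.13, edgeR adjusted p = 0.000926), while its partner chains Col6a1 and Col6a2 were among the 10 largest increases. The ha libraries were far apart for both partners. Col6a1 rose from 583 and 579 to 4066 and 1963 CPM (edgeR adjusted p = 0.0317). Col6a2 rose from 410 and 421 to 3038 and 1363 CPM (edgeR adjusted p = 0.0499). Col6a3 stood at 1031 to 1129 CPM in hr and was not called between ha and hr (log2 fold change -0.14, edgeR adjusted p = 0.347). Mcl1, an inhibitor of apoptosis, fell from 2361 and 2258 to 778 and 491 CPM (log2 fold change -1.86 ± 0.50, edgeR adjusted p = 0.0197). Vim, the intermediate filament vimentin of mesenchymal cells, fell from 4625 and 4643 to 1924 and 2117 CPM (log2 fold change -1.20 ± 0.20, edgeR adjusted p = 0.00301), and remained among the abundant transcripts of both groups. Ncl, the nucleolar protein nucleolin, fell from 1878 and 1912 to 648 and 762 CPM (log2 fold change -1.43 ± 0.13, edgeR adjusted p = 0.000321). Hspd1, the mitochondrial chaperonin, fell from 1387 and 1370.3 to 432 and 472 CPM (log2 fold change -1.61 ± 0.17, edgeR adjusted p = 0.000534). Acat1, the mitochondrial acetyl-CoA acetyltransferase of ketone and isoleucine metabolism, fell from 1209 and 1191 to 90.6 and 98.7 CPM (log2 fold change -3.66 ± 0.34, edgeR adjusted p = 0.000374), with 703 to 1243 CPM in the 4 hr libraries. In the fit on summed pairs, Hspd1 and Acat1 stayed called (edgeR adjusted p 0.0207 to 0.0442). Col6a3, Mcl1, Vim and Ncl lost the call (adjusted p 0.0524 to 0.105). Without EF library 1 or without EF library 2 or without ha library 2, Mcl1 missed the threshold (edgeR, adjusted p 0.0696 to 0.103).

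The labelled cell type was checked against marker lists. Mesenchymal transcripts were abundant in both groups, with Col1a2 at 3609.5 and 3705 CPM in EF and 9434 and 8101 CPM in ha and Vim as given above. Of the stromal surface markers, 7 of 19 tested rose and 4 fell (median log2 fold change 0.32). Thy1, a surface glycoprotein used to select such cells, rose from 163 and 164 to 389.6 and 797 CPM (log2 fold change 1.86 ± 0.31, edgeR adjusted p = 0.00303). Alcam, an adhesion molecule of the immunoglobulin family, fell from 365 and 366 to 60.1 and 84.9 CPM (log2 fold change -2.33 ± 0.17, edgeR adjusted p = 0.000183). Kitl, the ligand of the receptor KIT, fell from 79.9 and 82.9 to 6.22 and 13.6 CPM (log2 fold change -3.03 ± 0.31, edgeR adjusted p = 0.00047). Eng, another marker of such cells, was low in both groups, at 3.73 and 3.03 CPM in EF and 2.78 and 3.89 CPM in ha. In bulk RNA, a change in the share of cells of a type and a change in RNA per cell cannot be told apart. On summed pairs the calls were 1 higher and 2 lower for stromal surface markers. With 1 of the 4 libraries left out, they were 2 to 7 higher and 3 to 6 lower for stromal surface markers (fewest higher without EF library 1 or EF library 2). When repeat pairs were summed, Alcam and Kitl passed the threshold (edgeR adjusted p 0.0243 to 0.0314). Thy1 fell outside it (adjusted p = 0.0908). All 3 calls held without any 1 of the 4 libraries (edgeR adjusted p up to 0.0312).

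Apart from the neural list, markers of other cell types were low. Of 20 hematopoietic markers, 4 were tested, and their summed level was 13.2 and 12.7 CPM in EF and 20.1 and 31.0 CPM in ha; the leukocyte marker Ptprc had 0 or 1 count in each of these 4 libraries and the macrophage marker Adgre1 had 0. Of the 4, 2 were called higher, the monocyte genes Lyz2 and Cd14, the latter with 3.37 and 14.2 CPM in ha. Of the 6 endothelial markers tested, 1 rose (Tek, a receptor of angiopoietins, with no count in EF and 2.56 and 10.8 CPM in ha, at least 56.7-fold higher (20.3-fold for the lower ha library)), and the defining marker Cdh5 stood at 0.512 and 0.648 CPM in ha. Their summed level was 20.7 and 19.2 CPM in EF and 18.1 and 22.2 CPM in ha. Of 30 epithelial junction genes, 6 were tested and 4 fell, Krt14, Krt8, Krt19 and Cldn9; Epcam was at 0 in all 8 libraries, and the summed level of the tested genes was 29.2 and 26.4 CPM in EF and 5.63 and 2.36 CPM in ha. Neural markers were mixed: 3 of 8 tested rose, among them Ncam1, an adhesion molecule that stromal cells also express, from 19.2 and 18.8 to 93.4 and 109 CPM (log2 fold change 2.41 ± 0.13, edgeR adjusted p = 6.98e-05), while Tubb3 fell. The 1 skeletal muscle marker tested fell, with a summed level of 2.57 and 2.79 CPM in EF and 0.293 and 1.12 CPM in ha. The part of such cells in the results below was not tested. Calls on summed pairs numbered 0 higher and 0 lower for hematopoietic markers, 0 higher and 0 lower for endothelial markers and 0 higher and 2 lower for epithelial genes. Leaving out 1 library gave calls of 0 to 2 higher and 0 lower for hematopoietic markers (fewest higher without EF library 1 or EF library 2 or ha library 2), 0 to 1 higher and 0 lower for endothelial markers (fewest higher without EF library 1 or EF library 2) and 0 higher and 2 to 3 lower for epithelial genes (fewest lower without EF library 1 or ha library 1). The summed pairs gave calls of 2 higher and 0 lower for neural markers and 0 higher and 0 lower for the muscle marker. Without 1 of the 4 libraries, the counts were 2 to 5 higher and 0 to 2 lower for neural markers (most without ha library 1) and 0 higher and 0 to 1 lower for the muscle marker (fewest lower without EF library 1 or EF library 2 or ha library 1). After the EF and hr pairs were summed, Ncam1 held the call (edgeR adjusted p = 0.022). It held without any 1 of the 4 libraries (edgeR adjusted p up to 0.00307).

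The genes were next read by lists of families and pathways, and a list is described by how many of its tested members were called and by its median log2 fold change. Against 23.0% higher and 19.6% lower calls among all genes, 33 of 41 interferon-stimulated genes, 15 of 20 elastic fibre genes and 20 of 31 matrix proteases and inhibitors were called higher, and 24 of 27 mitosis genes and 25 of 31 DNA replication genes lower. The cholesterol and fatty acid synthesis list had a median of -0.88 with 2 members called, and none of the 13 mitochondrially encoded genes was called (median -0.13).

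**Figure D2:**
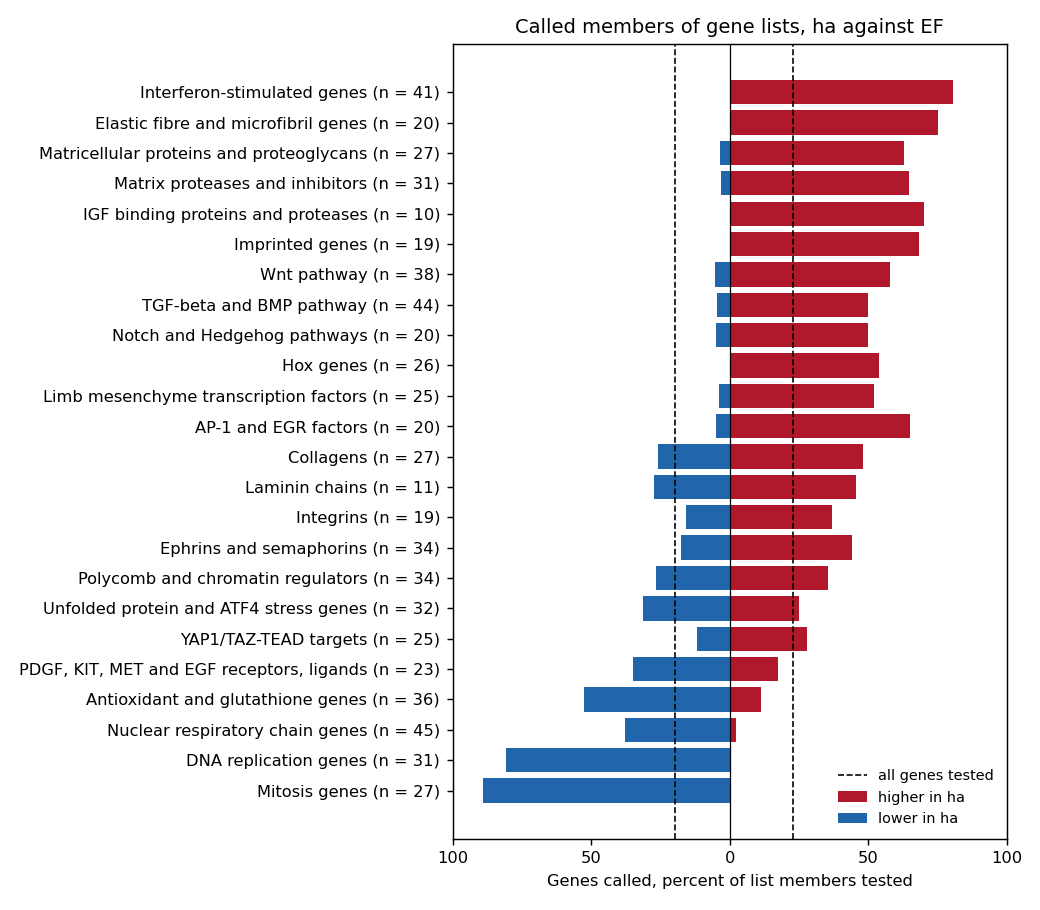
Share of the tested members of 24 gene lists called higher in ha (red, to the right) and lower in ha (blue, to the left), in percent, with the number tested beside each name; dashed lines mark the shares over all genes tested (23.0% and 19.6%). The mitosis and replication lists hold lower calls only, and the interferon and elastic fibre lists higher calls only.

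Laminins, the trimeric proteins of the basement membrane, changed chain by chain, and so did the integrin subunits through which cells bind them. Lama4, the alpha-4 chain of vessels and mesenchyme, had 0.0887 and 0.160 CPM in EF (3 counts in all) and 192 and 159.8 CPM in ha, a ratio of 1383 (95% interval 473 to 6707) that covers counting error only (edgeR adjusted p = 1.14e-05); the hr libraries held 0 to 0.0713 CPM. Lama2, the alpha-2 chain of muscle and nerve basement membranes, rose from 1.24 and 2.08 to 126 and 139 CPM (log2 fold change 6.30 ± 1.01, edgeR adjusted p = 0.00267). Lama5, the alpha-5 chain of mature basement membranes, ran the other way, from 318 and 317 to 27.7 and 24.2 CPM (log2 fold change -3.62 ± 0.12, edgeR adjusted p = 1.14e-05). Lamb3, a chain of an epithelial laminin, fell from 5.23 and 5.99 to 0.219 and 0.236 CPM (log2 fold change -4.56 ± 0.33, edgeR adjusted p = 0.000165). Lamc1, the common gamma chain, fell from 725 and 744 to 310.3 and 251 CPM (log2 fold change -1.39 ± 0.16, edgeR adjusted p = 0.000645). Of the chains, 5 of 11 tested rose and 3 fell (median log2 fold change 0.57). Itga6 and Itga3, alpha subunits of laminin receptors, fell, and Itga7, another, was not called, at 10.5 and 10.4 CPM in EF and 31.2 and 25.9 CPM in ha. Itga6 stood at 432 and 442 CPM in EF, 253 to 271 CPM in hr and 23.4 and 18.1 CPM in ha (log2 fold change -4.40 ± 0.15, edgeR adjusted p = 1.14e-05). Itga3 went from 169.5 and 170.4 to 25.4 and 22.9 CPM (log2 fold change -2.81 ± 0.21, edgeR adjusted p = 0.000184). The leukocyte-type subunit Itgb7 fell from 16.1 and 14.6 to 0.951 and 0.530 CPM (log2 fold change -4.38 ± 0.37, edgeR adjusted p = 0.000252). Itga11 and Itga8, other alpha subunits, moved the other way. Itga11, a collagen receptor of fibroblasts, rose from 7.10 and 4.87 to 104 and 126 CPM (log2 fold change 4.27 ± 0.24, edgeR adjusted p = 8.19e-05). Itga8, a receptor of nephronectin, rose from 0.177 and 0.240 to 24.4 and 33.9 CPM (log2 fold change 7.05 ± 0.70, edgeR adjusted p = 0.000442). Itgb1, the shared beta subunit, was at 1161 and 1160.3 CPM in EF and 1109 and 1461 CPM in ha and was not called. Of the integrins, 7 of 19 tested rose and 3 fell (median log2 fold change 1.42). The fit on summed pairs called 1 higher and 2 lower for laminin chains and 2 higher and 3 lower for integrins. When 1 library was left out, the calls ranged over 3 to 4 higher and 3 lower for laminin chains (fewest higher without EF library 1 or EF library 2) and 5 to 7 higher and 3 lower for integrins. On summed pairs, Lama4, Lama5, Lamb3, Itga6, Itga3, Itgb7, Itga11 and Itga8 remained past the threshold (edgeR adjusted p 0.0108 to 0.0329). Lama2 and Lamc1 did not pass (adjusted p 0.0515 to 0.0524). With any 1 of the 4 libraries left out, each of these 10 calls held (largest edgeR adjusted p 0.0324).

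**Figure D3:**
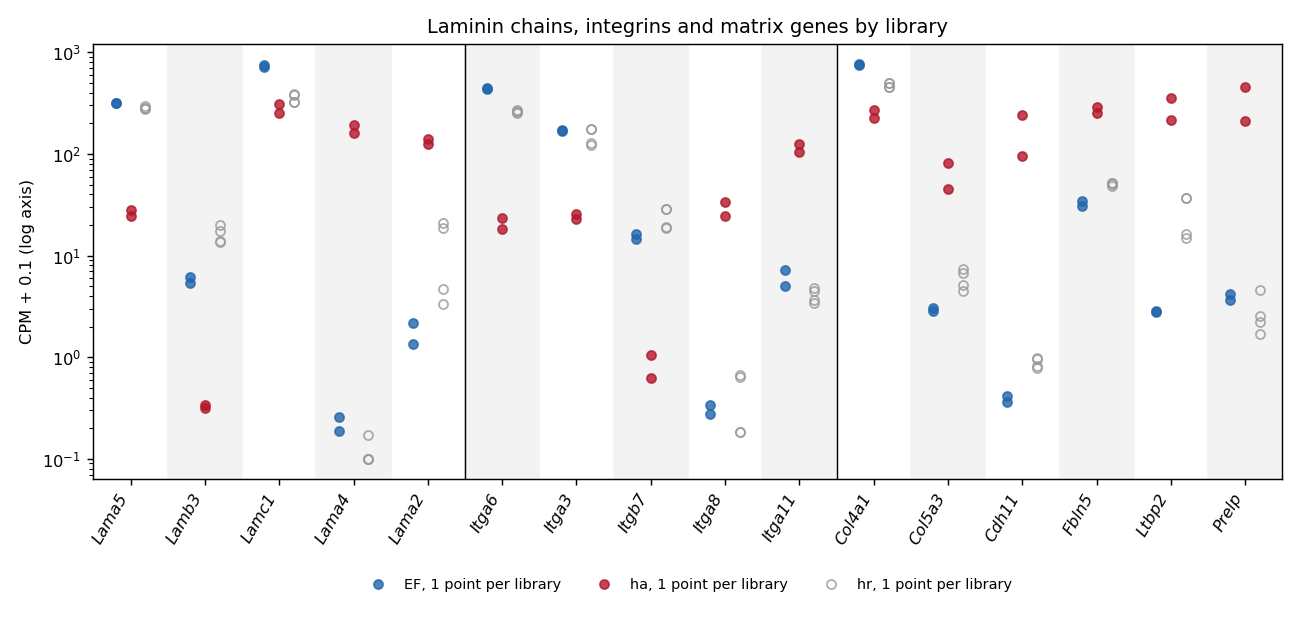
CPM plus 0.1 of laminin chains, integrin subunits and other adhesion and matrix genes on a log axis, 1 point per library for EF (blue), ha (red) and hr (grey, open). The ha libraries stand apart from EF for each gene the text calls, in both directions, and the hr libraries lie near EF for Lama4 and Lama5.

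Cdh11, a cadherin of mesenchymal cells, had 0.266 and 0.319 CPM in EF and 96.1 and 242 CPM in ha (log2 fold change 9.12 ± 0.59, edgeR adjusted p = 0.000122), with 0.675 to 0.888 CPM in hr. It also differed between ha and hr (log2 fold change 7.75 ± 0.39, edgeR adjusted p = 3.08e-05). Cdh2, the other abundant cadherin of mesenchyme, was at 58.2 and 55.6 CPM in EF and 41.9 and 51.0 CPM in ha and was not called. Of 5 cadherins tested, 1 was called, and the epithelial cadherin Cdh1 had 1 to 3 counts in each of the 4 libraries. Collagens, the fibrous and sheet-forming proteins of the matrix, also moved in both directions: 13 of 27 tested rose and 7 fell (median log2 fold change 0.59). Basement membrane collagen Col4a1 fell from 746 and 772 to 225 and 269.8 CPM (log2 fold change -1.62 ± 0.13, edgeR adjusted p = 0.000247). The anchoring fibril collagen Col7a1 fell from 21.6 and 23.6 to 6.51 and 5.95 CPM (log2 fold change -1.86 ± 0.24, edgeR adjusted p = 0.00107). Col5a3, a minor fibrillar collagen, rose from 2.75 and 2.95 to 81.2 and 45.2 CPM (log2 fold change 4.46 ± 0.37, edgeR adjusted p = 0.000247). Col1a2, a chain of the main bone collagen, rose from 3609.5 and 3705 to 9434 and 8101 CPM (log2 fold change 1.26 ± 0.14, edgeR adjusted p = 0.000581). Col1a1, its partner chain, was at 3509 and 3605 CPM in EF and 5208 and 3606 CPM in ha and was not called. Summing the pairs gave calls of 1 higher and 0 lower for cadherins and 2 higher and 2 lower for collagens. Fits without 1 library gave calls of 1 higher and 0 lower for cadherins (median -0.29 to 1.24) and 7 to 13 higher and 4 to 5 lower for collagens (fewest higher without EF library 1 or EF library 2). With the EF pair and the hr pairs summed, Cdh11, Col4a1, Col7a1 and Col5a3 kept an adjusted p under 0.05 (edgeR adjusted p 0.0198 to 0.0426). Col1a2 missed it (adjusted p = 0.105). All 5 calls held without any 1 of the 4 libraries (edgeR adjusted p up to 0.0126).

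Elastic fibres are elastin cores on a scaffold of fibrillin microfibrils, and of their genes 15 of 20 tested rose and 0 fell (median log2 fold change 2.05). Eln, elastin itself, had 2 counts in EF and 13.4 and 14.4 CPM in ha, a ratio of 166 (95% interval 45.7 to 1376) (edgeR adjusted p = 0.00237). Fbn1, the main fibrillin, rose from 120.0 and 117 to 492 and 638 CPM (log2 fold change 2.26 ± 0.23, edgeR adjusted p = 0.000511). Fbln5, which places elastin on microfibrils, rose from 31.0 and 34.0 to 250.4 and 287 CPM (log2 fold change 3.05 ± 0.12, edgeR adjusted p = 1.53e-05). Loxl1, which cross-links it, rose from 114 and 118 to 436 and 414 CPM (log2 fold change 1.87 ± 0.11, edgeR adjusted p = 8.19e-05). The latent TGF-beta binding protein Ltbp2 rose from 2.75 and 2.71 to 213 and 357 CPM (log2 fold change 6.70 ± 0.64, edgeR adjusted p = 0.000399). The ha libraries were above both EF libraries for each of these 5 genes. Of matricellular proteins and proteoglycans, 17 of 27 tested rose and 1 fell (median log2 fold change 2.35). Prelp, a leucine-rich proteoglycan, went from 4.08 and 3.59 to 451 and 212 CPM (log2 fold change 6.43 ± 0.54, edgeR adjusted p = 0.000257). Ccn5, a secreted regulator of smooth muscle growth, rose from 0.798 and 1.20 to 45.6 and 88.5 CPM (log2 fold change 6.05 ± 0.58, edgeR adjusted p = 0.000412). Fn1, fibronectin, was at 9763 and 9899 CPM in EF and 24707 and 18028 CPM in ha and was not called (log2 difference 1.12 ± 0.43, edgeR adjusted p = 0.0694). Of proteases and their inhibitors, 20 of 31 tested rose and 1 fell (median log2 fold change 1.91). Adamts12 rose from 1.06 and 0.958 to 31.8 and 41.7 CPM (log2 fold change 5.17 ± 0.39, edgeR adjusted p = 0.000183). Bmp1, the procollagen C-proteinase, rose from 42.0 and 43.7 to 238 and 159.7 CPM (log2 fold change 2.21 ± 0.20, edgeR adjusted p = 0.00034). Plau, urokinase, rose from 17.0 and 19.5 to 106 and 129 CPM (log2 fold change 2.69 ± 0.32, edgeR adjusted p = 0.000865). Calls in the summed fit came to 8 higher and 0 lower for elastic fibre genes, 5 higher and 0 lower for matricellular genes and proteoglycans and 9 higher and 0 lower for proteases and inhibitors. Dropping 1 of the 4 libraries gave calls of 11 to 14 higher and 0 to 3 lower for elastic fibre genes, 11 to 17 higher and 0 to 1 lower for matricellular genes and proteoglycans (fewest higher without EF library 1 or EF library 2) and 15 to 20 higher and 0 to 1 lower for proteases and inhibitors. Summing the EF and hr pairs left Eln, Fbn1, Fbln5, Loxl1, Ltbp2, Prelp, Ccn5, Adamts12, Bmp1 and Plau past the threshold (edgeR adjusted p 0.0175 to 0.0486). No call among these 10 was lost when 1 of the 4 libraries was left out (edgeR adjusted p up to 0.0256).

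Regulators of mesenchymal identity also moved. Zeb1 and Snai2, zinc finger repressors of epithelial genes, both rose. Zeb1 went from 40.3 and 42.3 to 147 and 146 CPM (log2 fold change 1.83 ± 0.13, edgeR adjusted p = 0.000147). Snai2 rose from 17.5 and 16.4 to 63.3 and 92.7 CPM (log2 fold change 2.20 ± 0.30, edgeR adjusted p = 0.00143). The E protein Tcf4, a partner of class II helix-loop-helix factors, rose from 54.4 and 57.8 to 214 and 228 CPM (log2 fold change 1.98 ± 0.17, edgeR adjusted p = 0.000273). Twist1 and Zeb2, of the same group, were not called. Of this list, which also holds cytoskeleton genes, 6 of 15 tested rose and 3 fell (median log2 fold change 0.25). Vim, with the values given above, was among those that fell. Limb mesenchyme factors gave 13 higher and 1 lower calls among 25 (median 1.22). Tbx3, a T-box factor of the posterior limb bud, rose from 5.68 and 4.07 to 23.9 and 22.6 CPM (log2 fold change 2.25 ± 0.27, edgeR adjusted p = 0.000804). Tbx18 rose from 27.9 and 30.4 to 74.0 and 68.2 CPM (log2 fold change 1.29 ± 0.12, edgeR adjusted p = 0.000385). Of the Hox genes, which set position along the body and limb axes, 14 of 26 tested rose and 0 fell (median log2 fold change 0.98). Most were low, and Hoxc10, a gene of the hindlimb, rose from 0.177 and 0.160 to 5.41 and 4.66 CPM (log2 fold change 4.82 ± 0.57, edgeR adjusted p = 0.000758). On summed pairs the calls were 4 higher and 0 lower for the Zeb, Snai and cytoskeleton list, 2 higher and 0 lower for limb factors and 1 higher and 0 lower for Hox genes. With 1 of the 4 libraries left out, they were 5 to 7 higher and 2 to 3 lower for the Zeb, Snai and cytoskeleton list, 5 to 12 higher and 0 to 2 lower for limb factors (fewest higher without EF library 1) and 4 to 9 higher and 0 lower for Hox genes (fewest higher without EF library 2). In the fit on summed pairs, Zeb1, Snai2, Tcf4, Tbx3, Tbx18 and Hoxc10 stayed called (edgeR adjusted p 0.0314 to 0.0495). With any 1 of the 4 libraries left out, each of these 6 calls held (largest edgeR adjusted p 0.0195).

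Several signalling families changed. For the insulin-like growth factors, the binding proteins that hold the ligand outside the cell and the proteases that release it gave 7 higher and 0 lower calls among 10 (median 1.88). Igfbp4 rose from 78.9 and 78.6 to 525 and 431 CPM (log2 fold change 2.60 ± 0.24, edgeR adjusted p = 0.000365). Igfbp3 rose from 1.51 and 1.28 to 32.0 and 38.9 CPM (log2 fold change 4.66 ± 0.28, edgeR adjusted p = 8.19e-05). Pappa, the protease that cleaves Igfbp4, had no count in EF and 7.68 and 14.0 CPM in ha, at least 88.5-fold higher (edgeR adjusted p = 0.000746). Of ligands, receptors and substrates, 7 of 16 tested rose and 3 fell (median log2 fold change 0.38); Irs1, the adaptor below the receptor, rose from 43.4 and 37.4 to 139.9 and 162 CPM (log2 fold change 1.90 ± 0.14, edgeR adjusted p = 0.000187). Egfr, the EGF receptor, rose from 31.6 and 26.7 to 125 and 177 CPM (log2 fold change 2.37 ± 0.24, edgeR adjusted p = 0.000456). Its ligand Ereg fell from 39.3 and 38.8 to 8.63 and 9.72 CPM (log2 fold change -2.09 ± 0.24, edgeR adjusted p = 0.000691). Nrg1, which acts through other members of that receptor family, fell from 86.9 and 85.0 to 37.3 and 46.8 CPM (log2 fold change -1.03 ± 0.13, edgeR adjusted p = 0.000868). Pdgfa, a ligand of the PDGF receptors, fell from 197 and 195 to 51.4 and 42.5 CPM (log2 fold change -2.06 ± 0.21, edgeR adjusted p = 0.00047). The receptor Pdgfra went from 258 and 261 to 1452 and 1611 CPM (log2 fold change 2.56 ± 0.61, edgeR adjusted p = 0.0126). Over that list of receptor tyrosine kinases and ligands, 4 of 23 tested rose and 8 fell (median log2 fold change -0.17), and over the FGF pathway 5 of 21 tested rose and 7 fell (median log2 fold change -0.53). Calls on summed pairs numbered 3 higher and 0 lower for IGF binding proteins and proteases, 4 higher and 1 lower for IGF ligands, receptors and substrates and 1 higher and 4 lower for receptor tyrosine kinases and ligands. Leaving out 1 library gave calls of 4 to 7 higher and 0 lower for IGF binding proteins and proteases (fewest higher without EF library 2), 5 to 7 higher and 2 to 4 lower for IGF ligands, receptors and substrates and 2 to 5 higher and 6 to 8 lower for receptor tyrosine kinases and ligands. The summed pairs gave calls of 0 higher and 2 lower for FGF genes. Without 1 of the 4 libraries, the counts were 4 to 5 higher and 4 to 9 lower for FGF genes (fewest lower without EF library 2). When repeat pairs were summed, Igfbp4, Igfbp3, Pappa, Irs1, Egfr, Ereg and Pdgfa passed the threshold (edgeR adjusted p 0.0175 to 0.0347). Nrg1 and Pdgfra fell outside it (adjusted p 0.0646 to 0.099). Pdgfra was not called without EF library 1 or without EF library 2 (edgeR, adjusted p 0.0802 to 0.0812).

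Of Wnt pathway genes, 22 of 38 tested rose and 2 fell (median log2 fold change 1.20). Among receptors, Fzd8 rose from 1.42 and 0.878 to 21.4 and 40.7 CPM (log2 fold change 4.76 ± 0.55, edgeR adjusted p = 0.000729). Ror1, the receptor of Wnt5a, had 3 counts in EF and 6.73 and 5.89 CPM in ha, a ratio of 49.7 (95% interval 16.7 to 243) (edgeR adjusted p = 0.00108). Secreted antagonists rose beside them, Frzb from 1.77 and 0.798 to 28.8 and 52.9 CPM (log2 fold change 4.99 ± 0.50, edgeR adjusted p = 0.00045). Znrf3, which removes frizzled receptors from the membrane, fell from 31.6 and 28.9 to 13.5 and 10.4 CPM (log2 fold change -1.34 ± 0.15, edgeR adjusted p = 0.000672). Of TGF-beta and BMP genes, 22 of 44 tested rose and 2 fell (median log2 fold change 0.91), with the ligand Tgfb2 from 8.52 and 7.34 to 43.3 and 57.3 CPM (log2 fold change 2.67 ± 0.33, edgeR adjusted p = 0.000926). Of Notch and Hedgehog genes, 10 of 20 tested rose and 1 fell (median log2 fold change 1.19). The Hedgehog effectors went apart. Gli2 rose from 0.0887 and 0.399 to 5.05 and 9.96 CPM (log2 fold change 4.86 ± 0.76, edgeR adjusted p = 0.00244). Gli1 fell from 5.32 and 6.07 to 1.17 and 1.12 CPM (log2 fold change -2.31 ± 0.35, edgeR adjusted p = 0.0022). Of ephrins, semaphorins and their receptors, 15 of 34 tested rose and 6 fell (median log2 fold change 0.37). Nrp2, a receptor of class 3 semaphorins, fell from 213 and 220.1 to 46.3 and 55.0 CPM (log2 fold change -2.09 ± 0.12, edgeR adjusted p = 8.19e-05). Epha4, an ephrin receptor, rose from 4.79 and 5.51 to 47.8 and 30.1 CPM (log2 fold change 2.92 ± 0.25, edgeR adjusted p = 0.000283). The fit on summed pairs called 4 higher and 0 lower for Wnt genes, 2 higher and 0 lower for TGF-beta and BMP genes and 1 higher and 0 lower for Notch and Hedgehog genes. When 1 library was left out, the calls ranged over 10 to 21 higher and 1 to 3 lower for Wnt genes (fewest higher without EF library 2), 7 to 17 higher and 0 to 2 lower for TGF-beta and BMP genes (fewest higher without EF library 2) and 6 to 9 higher and 1 lower for Notch and Hedgehog genes (fewest higher without EF library 1 or EF library 2). Summing the pairs gave calls of 3 higher and 2 lower for ephrins, semaphorins and receptors. Fits without 1 library gave calls of 9 to 13 higher and 3 to 5 lower for ephrins, semaphorins and receptors (fewest higher without EF library 2). After the EF and hr pairs were summed, Fzd8, Ror1, Frzb, Tgfb2, Gli2, Nrp2 and Epha4 held the call (edgeR adjusted p 0.0219 to 0.0403). Znrf3 and Gli1 did not hold it (adjusted p 0.0541 to 0.0657). No call among these 9 was lost when 1 of the 4 libraries was left out (edgeR adjusted p up to 0.0251).

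Genes of cell division were lower in ha. Of mitosis genes, 0 of 27 tested rose and 24 fell (median log2 fold change -1.54), and both ha libraries lay below both EF libraries for all 27. Aurkb, a kinase of the chromosomal passenger complex, fell from 58.8 and 61.6 to 14.3 and 18.3 CPM (log2 fold change -1.88 ± 0.17, edgeR adjusted p = 0.000306). Plk1, a kinase of mitotic entry, fell from 78.0 and 77.7 to 18.2 and 21.6 CPM (log2 fold change -1.97 ± 0.20, edgeR adjusted p = 0.000503). Anln, the cytokinesis scaffold anillin, fell from 442 and 438 to 87.1 and 129 CPM (log2 fold change -2.03 ± 0.20, edgeR adjusted p = 0.00042). Mki67, the proliferation marker, stood at 431 and 443 CPM in EF and 62.9 and 167 CPM in ha (log2 fold change -1.92 ± 0.51, edgeR adjusted p = 0.0193). Of replication genes, 0 of 31 tested rose and 25 fell (median log2 fold change -1.34). Lig1, the replicative DNA ligase, fell from 184 and 183 to 43.3 and 56.1 CPM (log2 fold change -1.89 ± 0.22, edgeR adjusted p = 0.000819). Cdc45, part of the replicative helicase, fell from 63.4 and 63.9 to 18.1 and 25.9 CPM (log2 fold change -1.53 ± 0.17, edgeR adjusted p = 0.000606). Of G1 regulators, the cyclin Ccnd1 fell from 825 and 800.5 to 109 and 82.0 CPM (log2 fold change -3.09 ± 0.46, edgeR adjusted p = 0.00206). Ccnd2 was at 328 and 334 CPM in EF and 302 and 366 CPM in ha and was not called. The inhibitor Cdkn1b rose from 54.8 and 52.5 to 112 and 127 CPM (log2 fold change 1.16 ± 0.20, edgeR adjusted p = 0.0033). The inhibitor Cdkn1a, a p53 target, was at 159.9 and 160.4 CPM in EF and 131 and 209.5 CPM in ha and was not called. Of the list of p53 targets and inhibitors, 3 of 28 tested rose and 6 fell (median log2 fold change -0.17). The ha libraries differed between themselves here: ha library 1 was below ha library 2 for 26 of 27 mitosis genes (median log2 ratio -0.64) and for 30 of 31 replication genes (-0.60). Calls in the summed fit came to 0 higher and 7 lower for mitosis genes, 0 higher and 3 lower for replication genes and 0 higher and 3 lower for p53 targets and inhibitors. Dropping 1 of the 4 libraries gave calls of 0 higher and 17 to 26 lower for mitosis genes, 0 higher and 17 to 27 lower for replication genes and 1 to 2 higher and 4 to 6 lower for p53 targets and inhibitors. On summed pairs, Aurkb, Plk1, Anln, Lig1, Cdc45 and Ccnd1 remained past the threshold (edgeR adjusted p 0.0299 to 0.0429). Mki67 and Cdkn1b did not pass (adjusted p 0.0847 to 0.116). The call of Mki67 did not hold without EF library 1 or without EF library 2 or without ha library 1 (edgeR, adjusted p 0.0679 to 0.0724).

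Hmga2, a chromatin protein of fetal and tumour cells, fell from 275 and 279 to 13.0 and 16.7 CPM (log2 fold change -4.22 ± 0.33, edgeR adjusted p = 0.000207), with 129.8 to 216 CPM in hr. Igf2bp1, an RNA-binding protein that is likewise active in fetal cells, fell from 108 and 111 to 32.3 and 25.4 CPM (log2 fold change -1.92 ± 0.29, edgeR adjusted p = 0.00206). Within the Polycomb repressive complex 2, Suz12 fell from 148 and 144 to 61.7 and 70.4 CPM (log2 fold change -1.14 ± 0.10, edgeR adjusted p = 0.000312). Eed fell from 47.2 and 45.8 to 26.8 and 25.5 CPM (log2 fold change -0.83 ± 0.10, edgeR adjusted p = 0.000866). The alternative catalytic subunit Ezh1 rose from 17.9 and 21.9 to 48.0 and 47.7 CPM (log2 fold change 1.26 ± 0.15, edgeR adjusted p = 0.000844). Tet2, which oxidises methylated cytosine, rose from 4.52 and 5.27 to 21.4 and 36.5 CPM (log2 fold change 2.56 ± 0.29, edgeR adjusted p = 0.000645). The maintenance methyltransferase Dnmt1 fell from 354 and 357 to 132 and 169 CPM (log2 fold change -1.24 ± 0.25, edgeR adjusted p = 0.00668). Over the list of Polycomb and chromatin genes, 12 of 34 tested rose and 9 fell (median log2 fold change 0.36). Tert, the catalytic subunit of telomerase, had no count in EF, 0.759 to 1.95 CPM in hr and 6.29 and 7.96 CPM in ha, at least 57.2-fold higher than EF (edgeR adjusted p = 0.000644). On summed pairs the calls were 1 higher and 2 lower for Polycomb and chromatin genes. With 1 of the 4 libraries left out, they were 8 to 12 higher and 6 to 8 lower for Polycomb and chromatin genes. With the EF pair and the hr pairs summed, Hmga2, Igf2bp1, Suz12, Tet2 and Tert kept an adjusted p under 0.05 (edgeR adjusted p 0.0175 to 0.0494). Eed, Ezh1 and Dnmt1 missed it (adjusted p 0.0551 to 0.082). All 8 calls held without any 1 of the 4 libraries (edgeR adjusted p up to 0.039).

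Several genes of the glutathione and thioredoxin systems fell. Of the antioxidant list, 4 of 36 tested rose and 19 fell (median log2 fold change -0.51). Both subunits of the enzyme that limits glutathione synthesis were lower. Gclc fell from 74.5 and 75.5 to 27.5 and 30.4 CPM (log2 fold change -1.37 ± 0.10, edgeR adjusted p = 0.000182). Gclm fell from 180.3 and 179 to 35.3 and 39.0 CPM (log2 fold change -2.27 ± 0.24, edgeR adjusted p = 0.000571). Thioredoxin Txn1 fell from 314 and 297 to 116 and 115 CPM (log2 fold change -1.40 ± 0.10, edgeR adjusted p = 0.000153). Its reductase Txnrd1 fell from 487 and 480.0 to 145 and 144 CPM (log2 fold change -1.74 ± 0.16, edgeR adjusted p = 0.000378). Glutathione reductase Gsr fell from 117 and 116 to 41.9 and 30.9 CPM (log2 fold change -1.68 ± 0.16, edgeR adjusted p = 0.000429). The quinone reductase Nqo1 fell from 79.6 and 82.1 to 7.10 and 12.1 CPM (log2 fold change -3.07 ± 0.55, edgeR adjusted p = 0.0039), and the hr libraries spanned 36.7 to 91.3 CPM. Many of these genes are known targets of the transcription factor NRF2, whose own gene Nfe2l2 was at 165 and 178 CPM in EF and 154 and 177 CPM in ha and was not called. The glutathione transferase Gstm5 rose from 8.07 and 9.18 to 39.9 and 34.6 CPM (log2 fold change 2.11 ± 0.15, edgeR adjusted p = 0.000147). Calls on summed pairs numbered 1 higher and 7 lower for antioxidant genes. Leaving out 1 library gave calls of 1 to 3 higher and 14 to 17 lower for antioxidant genes. Summing the EF and hr pairs left Gclc, Gclm, Txn1, Txnrd1, Gsr, Nqo1 and Gstm5 past the threshold (edgeR adjusted p 0.0275 to 0.0454). No call among these 7 was lost when 1 of the 4 libraries was left out (edgeR adjusted p up to 0.0277).

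**Figure D4:**
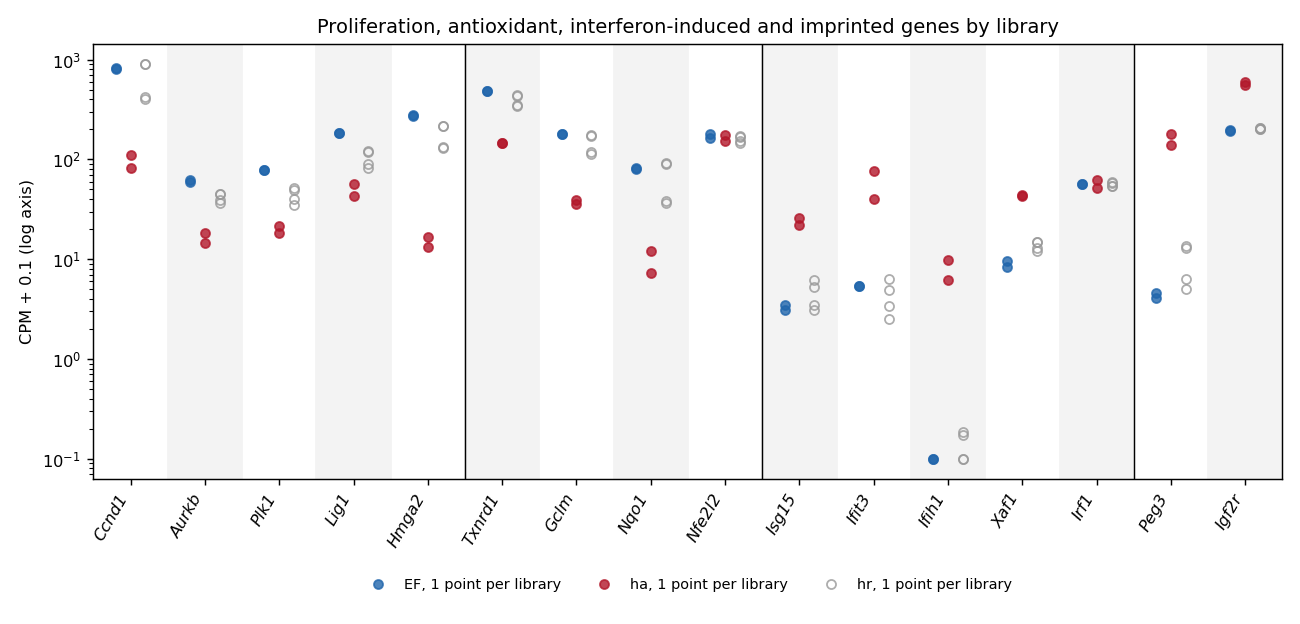
CPM plus 0.1 of proliferation, antioxidant, interferon-induced and imprinted genes on a log axis, 1 point per library for EF (blue), ha (red) and hr (grey, open). The EF and ha libraries do not overlap for the called genes, and they do overlap for Nfe2l2 and Irf1, which were not called.

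Stress and metabolic lists were mixed. Of unfolded protein and ATF4 genes, 8 of 32 tested rose and 10 fell (median log2 fold change 0.18). The chaperone Dnajb9 of the endoplasmic reticulum rose from 5.68 and 5.83 to 46.7 and 34.7 CPM (log2 fold change 2.82 ± 0.20, edgeR adjusted p = 0.000156). The serine synthesis enzyme Psat1 fell from 367 and 366 to 158 and 116 CPM (log2 fold change -1.42 ± 0.18, edgeR adjusted p = 0.000937). Psph, of the same route, fell from 94.6 and 100.2 to 41.5 and 27.7 CPM (log2 fold change -1.49 ± 0.19, edgeR adjusted p = 0.000937). Of nuclear genes of the respiratory chain, 1 of 45 tested rose and 17 fell (median log2 fold change -0.25). Cox6c was the 1 that rose, from 131 and 136 to 352 and 312 CPM (log2 fold change 1.32 ± 0.19, edgeR adjusted p = 0.00164). Uqcrq of complex III fell from 87.0 and 81.1 to 54.5 and 47.2 CPM (log2 fold change -0.73 ± 0.11, edgeR adjusted p = 0.00196). Of glycolysis and hypoxia genes, 10 of 28 tested rose and 3 fell (median log2 fold change 0.33); Egln3, a prolyl hydroxylase that hypoxia induces, rose from 0.177 and 0.399 to 13.7 and 7.07 CPM (log2 fold change 5.10 ± 0.70, edgeR adjusted p = 0.00143). Of cholesterol and fatty acid synthesis genes, 0 of 33 tested rose and 2 fell (median log2 fold change -0.88), and ha library 1 was above ha library 2 for 30 of 33 (median log2 ratio 0.92). Of ribosomal protein genes, 0 of 34 tested rose and 4 fell (median log2 fold change -0.23), and ha library 1 was above ha library 2 for 33 of 34 (median log2 ratio 0.60). The summed pairs gave calls of 1 higher and 0 lower for unfolded protein and ATF4 genes, 0 higher and 0 lower for respiratory chain genes and 1 higher and 0 lower for glycolysis and hypoxia genes. Without 1 of the 4 libraries, the counts were 4 to 13 higher and 5 to 10 lower for unfolded protein and ATF4 genes (fewest lower without EF library 1 or EF library 2), 1 to 3 higher and 4 to 16 lower for respiratory chain genes (fewest lower without EF library 1) and 3 to 12 higher and 0 to 4 lower for glycolysis and hypoxia genes (fewest higher without EF library 1 or EF library 2). The fit on summed pairs called 0 higher and 0 lower for cholesterol and fatty acid genes, 0 higher and 0 lower for ribosomal protein genes and 0 higher and 0 lower for mitochondrially encoded genes. When 1 library was left out, the calls ranged over 0 higher and 0 to 9 lower for cholesterol and fatty acid genes (fewest lower without EF library 1 or EF library 2 or ha library 2, most without ha library 1), 0 to 6 higher and 0 to 21 lower for ribosomal protein genes (fewest lower without EF library 1 or EF library 2, most without ha library 1, median -0.54 to 0.01) and 0 higher and 0 to 2 lower for mitochondrially encoded genes. In the fit on summed pairs, Dnajb9 and Egln3 stayed called (edgeR adjusted p 0.0262 to 0.0456). Psat1, Psph, Cox6c and Uqcrq lost the call (adjusted p 0.0506 to 0.106). With any 1 of the 4 libraries left out, each of these 6 calls held (largest edgeR adjusted p 0.0245).

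Interferon-stimulated genes encode antiviral sensors and effectors, and many carry an interferon-stimulated response element, to which complexes that hold Irf9 bind. The core of that element, GAAA followed by NN and again GAAA, where N is any base, was looked for on either strand in the 250 bases before and 50 bases after the start of each gene (RefSeq, GRCm38.p6; overlapping matches were merged). It was in 1079 of all 27025 promoters (3.99%), in 375 of the 9972 of tested genes (3.76%) and in 18 of the 30 of listed interferon-stimulated genes that had a promoter entry (60.0%). Of those 30, 23 rose in ha and 16 of them held it, and 6 were tested and not called, of which 2 held it. A match is a description of the letters and no evidence of binding. The stretches of 70 bases upstream of the start that follow are those of the 5 genes with a match there, a log2 fold change over 2 and the highest level in ha, an order chosen after their values were seen. Capitals mark the matches, some on the opposite strand, and stretches are written 5′ to 3′ on the gene's strand: Ifit3 (chr19:34583353-34583422, plus strand), Trim30a (chr7:104465194-104465263, minus strand), Ifit1 (chr19:34640765-34640834, plus strand), Gbp3 (chr3:142559974-142560043, plus strand) and Isg15 (chr4:156200847-156200916, minus strand).
Ifit3: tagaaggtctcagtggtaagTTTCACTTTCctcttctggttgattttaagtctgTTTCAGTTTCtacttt
Trim30a: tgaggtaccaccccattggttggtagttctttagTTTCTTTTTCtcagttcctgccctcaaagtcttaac
Ifit1: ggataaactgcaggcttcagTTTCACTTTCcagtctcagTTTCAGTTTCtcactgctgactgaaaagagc
Gbp3: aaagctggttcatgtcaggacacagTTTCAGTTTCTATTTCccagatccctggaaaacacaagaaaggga
Isg15: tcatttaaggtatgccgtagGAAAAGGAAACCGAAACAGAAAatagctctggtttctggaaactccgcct

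Of the 41 interferon-stimulated genes tested, 33 rose and 0 fell (median log2 fold change 2.88), and for 36 both ha libraries were above both EF libraries. Isg15, a ubiquitin-like modifier, stood at 3.02 and 3.35 CPM in EF, 2.98 to 6.13 CPM in hr and 25.8 and 22.0 CPM in ha (log2 fold change 2.90 ± 0.36, edgeR adjusted p = 0.000937). Ifit3, which binds Ifit1 on foreign RNA, rose from 5.32 and 5.35 to 39.8 and 76.1 CPM (log2 fold change 3.44 ± 0.46, edgeR adjusted p = 0.00131). Ifit1 itself rose from 0.798 and 1.44 to 21.9 and 40.3 CPM (log2 fold change 4.78 ± 1.05, edgeR adjusted p = 0.00905). The RNA sensors Ddx58 and Ifih1 rose, Ddx58 from 28.7 and 29.4 to 74.3 and 83.0 CPM (log2 fold change 1.44 ± 0.11, edgeR adjusted p = 0.000193) and Ifih1 from 0 in EF to 6.07 and 9.78 CPM, at least 64.4-fold higher (edgeR adjusted p = 0.000857). Trim30a rose from 3.37 and 3.19 to 36.7 and 46.8 CPM (log2 fold change 3.67 ± 0.43, edgeR adjusted p = 0.000762). Gbp3, a guanylate-binding GTPase, rose from 0.621 and 0.958 to 23.9 and 36.7 CPM (log2 fold change 5.24 ± 0.83, edgeR adjusted p = 0.00249). Xaf1, a proapoptotic factor, rose from 8.25 and 9.58 to 42.9 and 44.4 CPM (log2 fold change 2.29 ± 0.16, edgeR adjusted p = 0.000147). Among the factors that drive the family, Irf9 rose from 4.97 and 4.79 to 32.3 and 40.7 CPM (log2 fold change 2.90 ± 0.41, edgeR adjusted p = 0.00158). Irf1, at 57.1 and 56.4 CPM in EF and 61.6 and 51.7 CPM in ha, and Ifit2, at 66.6 and 66.7 CPM in EF and 45.2 and 62.5 CPM in ha, were not called. Of the genes of MHC class I presentation, 7 of 22 tested rose and 1 fell (median log2 fold change 0.14). The immunoproteasome subunits Psmb8 and Psmb9 were not called. Summing the pairs gave calls of 17 higher and 0 lower for interferon-stimulated genes and 0 higher and 0 lower for class I presentation genes. Fits without 1 library gave calls of 22 to 32 higher and 0 to 1 lower for interferon-stimulated genes and 2 to 5 higher and 0 to 2 lower for class I presentation genes (fewest higher without EF library 1 or EF library 2, median -0.05 to 0.25). When repeat pairs were summed, Isg15, Ifit3, Ddx58, Ifih1, Trim30a, Gbp3, Xaf1 and Irf9 passed the threshold (edgeR adjusted p 0.023 to 0.0494). Ifit1 fell outside it (adjusted p = 0.0958). The call of Ifit1 did not hold without EF library 1 or without EF library 2 (edgeR, adjusted p 0.0596 to 0.0766).

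Inflammatory mediators gave 11 higher and 2 lower calls among 25. Beside C3, Ccl7, a monocyte chemokine, rose from 8.07 and 7.98 to 27.2 and 30.6 CPM (log2 fold change 1.85 ± 0.22, edgeR adjusted p = 0.000746). Saa3, an acute-phase protein, had 3 counts in EF and 4.97 and 5.72 CPM in ha, a ratio of 42.7 (95% interval 14.4 to 209) (edgeR adjusted p = 0.00209). Immediate-early genes, which cells transcribe within minutes of a stimulus, gave 13 higher and 1 lower calls among 20 (median 1.70). Here the ha libraries stood far apart. Fos was at 2.40 and 3.35 CPM in EF and 429 and 40.3 CPM in ha (log2 fold change 6.34 ± 1.24, edgeR adjusted p = 0.00563), Egr1 at 76.8 and 75.1 CPM in EF and 1532 and 306 CPM in ha (log2 fold change 3.60 ± 1.03, edgeR adjusted p = 0.0256), and Nr4a1, a nuclear receptor of the same early response, at 8.69 and 10.1 CPM in EF and 649.8 and 53.1 CPM in ha (log2 fold change 5.22 ± 1.05, edgeR adjusted p = 0.00616). All 20 genes of the list were higher in ha library 1 than in ha library 2 (median log2 ratio 1.59), against 6816 of all 13998 genes. Egr3, at 2.22 and 3.51 CPM in EF and 36.7 and 20.5 CPM in ha (log2 fold change 3.31 ± 0.36, edgeR adjusted p = 0.000587), and Fosl2, at 158 and 159.7 CPM in EF and 357 and 332 CPM in ha (log2 fold change 1.12 ± 0.10, edgeR adjusted p = 0.000339), differed less between the ha libraries. Fosl1, another subunit of AP-1, fell from 87.0 and 83.6 to 26.5 and 9.08 CPM (log2 fold change -2.27 ± 0.46, edgeR adjusted p = 0.00642). Calls in the summed fit came to 3 higher and 0 lower for inflammatory mediators and 1 higher and 0 lower for immediate-early genes. Dropping 1 of the 4 libraries gave calls of 5 to 10 higher and 0 to 2 lower for inflammatory mediators (fewest higher without EF library 1) and 3 to 16 higher and 1 to 2 lower for immediate-early genes (fewest higher without EF library 1). After the EF and hr pairs were summed, Ccl7, Saa3 and Egr3 held the call (edgeR adjusted p 0.0355 to 0.0447). Fos, Egr1, Nr4a1, Fosl2 and Fosl1 did not hold it (adjusted p 0.0715 to 0.171). Leaving out EF library 1 ended the calls of Fos, Egr1 and Nr4a1 (edgeR, adjusted p 0.0553 to 0.128). Egr1 and Nr4a1 were not called without EF library 2 (edgeR, adjusted p 0.052 to 0.13). Without ha library 1, Egr1 missed the threshold (edgeR, adjusted p = 0.144).

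**Figure D5:**
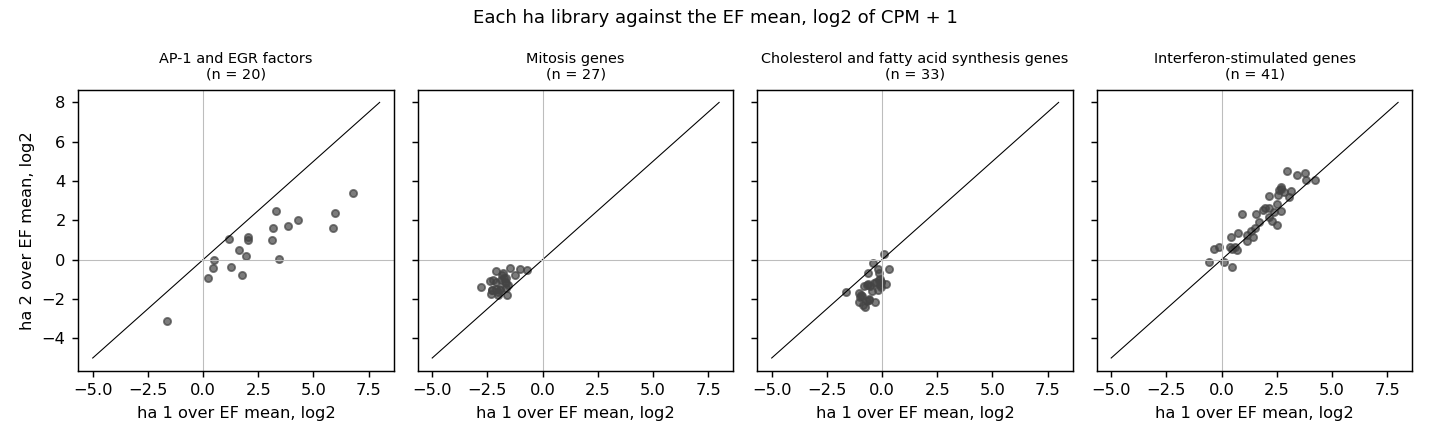
Level of each tested member of 4 gene lists in ha library 1 (horizontal axis) and ha library 2 (vertical axis), each as the log2 ratio of CPM plus 1 to the EF mean plus 1; the diagonal marks equal levels in both ha libraries. All 20 immediate-early genes lie below the diagonal, higher in ha library 1, most mitosis genes lie above it, and most cholesterol and fatty acid synthesis genes below it.

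Imprinted genes, of which 1 parental copy is silent, gave 13 higher and 0 lower calls among 19 (median 1.56). Peg3, a paternally expressed zinc finger protein, rose from 4.52 and 3.99 to 139 and 182 CPM (log2 fold change 5.23 ± 0.52, edgeR adjusted p = 0.00045), with 4.94 to 13.3 CPM in hr. Igf2r, the receptor that clears IGF-2, rose from 194 and 196 to 598 and 551 CPM (log2 fold change 1.56 ± 0.10, edgeR adjusted p = 0.000123). Plagl1, a zinc finger regulator of that network, rose from 3.55 and 3.19 to 84.1 and 42.7 CPM (log2 fold change 4.23 ± 0.59, edgeR adjusted p = 0.00155). H19 had 1 count over all 8 libraries. On summed pairs the calls were 3 higher and 0 lower for imprinted genes. With 1 of the 4 libraries left out, they were 7 to 11 higher and 0 to 1 lower for imprinted genes (fewest higher without EF library 1). On summed pairs, Peg3 and Igf2r remained past the threshold (edgeR adjusted p 0.0281 to 0.0454). Plagl1 did not pass (adjusted p = 0.0512). With any 1 of the 4 libraries left out, each of these 3 calls held (largest edgeR adjusted p 0.0225).

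Yap1 itself stood at 1276 and 1249 CPM in EF, 1412 to 1807 CPM in hr and 196 and 185 CPM in ha (log2 fold change -2.73 ± 0.18, edgeR adjusted p = 0.000122), and both ha libraries were below all others. Among genes of the Hippo pathway, 6 of 29 tested rose and 7 fell (median log2 fold change -0.22). The scaffold Wwc1 fell from 111 and 112 to 17.7 and 15.0 CPM (log2 fold change -2.77 ± 0.36, edgeR adjusted p = 0.00108). The atypical cadherin Fat4 had 1 count in EF and 50.0 and 81.9 CPM in ha, a ratio of 1610.2 (95% interval 289 to 63631) (edgeR adjusted p = 0.00201). The kinase Stk4 fell from 75.2 and 70.1 to 43.5 and 47.8 CPM (log2 fold change -0.67 ± 0.11, edgeR adjusted p = 0.00271), and the kinases Lats1 and Lats2 were not called. Of YAP1/TAZ-TEAD target genes, a signature of human tumours, 7 of 25 tested rose and 3 fell (median log2 fold change 0.06), counts to be read against the 23.0% and 19.6% over all genes. Rbms3, an RNA-binding protein on that list, rose from 5.15 and 5.67 to 59.0 and 58.9 CPM (log2 fold change 3.44 ± 0.17, edgeR adjusted p = 3.31e-05). F3, tissue factor, rose from 12.7 and 12.5 to 161 and 58.6 CPM (log2 fold change 3.12 ± 0.42, edgeR adjusted p = 0.00131). Of mouse orthologs of genes that EWS::FLI1 activates in human cells, 6 of 17 tested rose and 5 fell (median log2 fold change -0.10). Steap1, a membrane metalloreductase of that list, fell from 46.4 and 42.8 to 4.46 and 4.66 CPM (log2 fold change -3.29 ± 0.26, edgeR adjusted p = 0.000208). Npy1r, a neuropeptide Y receptor, had 2 counts in EF and 31.8 and 52.9 CPM in ha, a ratio of 517 (95% interval 143 to 4277) (edgeR adjusted p = 0.000851). Of orthologs of genes it represses, 13 of 19 tested rose and 2 fell (median log2 fold change 1.30); several are matrix genes also counted above, such as Col1a2. Both lists come from human tumour cells, and activity of the fusion in these mouse cells cannot be read from them. Calls on summed pairs numbered 0 higher and 2 lower for Hippo genes, 3 higher and 1 lower for YAP1/TAZ-TEAD targets and 4 higher and 2 lower for activated orthologs. Leaving out 1 library gave calls of 5 to 6 higher and 3 to 8 lower for Hippo genes (fewest lower without EF library 1, median -0.25 to 0.09), 4 to 7 higher and 2 to 4 lower for YAP1/TAZ-TEAD targets (fewest higher without EF library 1 or EF library 2 or ha library 1) and 4 to 5 higher and 4 lower for activated orthologs. The summed pairs gave calls of 2 higher and 0 lower for repressed orthologs. Without 1 of the 4 libraries, the counts were 8 to 14 higher and 1 lower for repressed orthologs (fewest higher without EF library 1 or EF library 2). With the EF pair and the hr pairs summed, Yap1, Wwc1, Rbms3, Steap1 and Npy1r kept an adjusted p under 0.05 (edgeR adjusted p 0.0175 to 0.0402). Fat4, Stk4 and F3 missed it (adjusted p 0.0573 to 0.116). All 8 calls held without any 1 of the 4 libraries (edgeR adjusted p up to 0.0307).

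Among the remaining lists, contractile genes of smooth muscle gave 8 higher and 3 lower calls among 16; Myl9, a regulatory light chain of myosin, rose from 0.355 and 0.719 to 14.8 and 32.2 CPM (log2 fold change 5.41 ± 0.51, edgeR adjusted p = 0.000385). Of chondrocyte genes, 4 of 9 tested rose and 1 fell (median log2 fold change 1.73), with Chst11, a chondroitin sulfotransferase, from 3.81 and 3.75 to 71.4 and 32.1 CPM (log2 fold change 3.77 ± 0.39, edgeR adjusted p = 0.0005). Of osteoblast genes, 2 of 9 tested rose and 0 fell (median log2 fold change 0.25); Runx2, the osteoblast master regulator, was at 68.7 and 73.9 CPM in EF and 90.4 and 79.5 CPM in ha and was not called. Of adipocyte genes, 5 of 15 tested rose and 3 fell (median log2 fold change 0.21). Zfp423, a preadipocyte regulator, had 3 counts in EF and 5.34 and 2.89 CPM in ha, a ratio of 31.6 (95% interval 10.6 to 155) (edgeR adjusted p = 0.000968). Lpl, of the same list, fell from 44.8 and 50.1 to 0.146 and 1.00 CPM (log2 fold change -6.27 ± 0.58, edgeR adjusted p = 0.000365). Of caveolae genes, 0 of 9 tested rose and 3 fell (median log2 fold change -0.47), and of ETS and FET family genes, 3 of 16 tested rose and 7 fell (median log2 fold change -0.36). Of genes of the sex chromosomes, 4 of 7 tested rose and 0 fell (median log2 fold change 0.50). Xist, the non-coding RNA that silences 1 X chromosome of female cells, was at 0.355 and 0.0798 CPM in EF, 123 to 449.8 CPM in hr and 399 and 934 CPM in ha (log2 fold change 11.56 ± 1.32, edgeR adjusted p = 0.000696). The Y chromosome genes Ddx3y and Eif2s3y had 0 counts in each of the 8 libraries, EF included. Kdm5d and Uty, also of the Y chromosome, had 0 or 1 count in each. Kdm6a, a histone demethylase of the X chromosome, rose from 27.1 and 25.7 to 53.9 and 65.7 CPM (log2 fold change 1.18 ± 0.13, edgeR adjusted p = 0.000687). The fit on summed pairs called 1 higher and 0 lower for contractile genes, 1 higher and 0 lower for chondrocyte genes and 0 higher and 0 lower for osteoblast genes. When 1 library was left out, the calls ranged over 3 to 8 higher and 0 to 2 lower for contractile genes (fewest higher without EF library 1 or EF library 2), 2 to 3 higher and 0 to 1 lower for chondrocyte genes (fewest higher without EF library 1 or EF library 2) and 0 to 2 higher and 0 to 1 lower for osteoblast genes (fewest higher without EF library 1 or EF library 2). Summing the pairs gave calls of 1 higher and 1 lower for adipocyte genes, 0 higher and 0 lower for caveolae genes and 0 higher and 0 lower for ETS and FET genes. Fits without 1 library gave calls of 3 to 4 higher and 1 to 4 lower for adipocyte genes (fewest higher without EF library 1), 0 higher and 1 to 5 lower for caveolae genes (fewest lower without EF library 1 or EF library 2, most without ha library 1) and 1 to 4 higher and 1 to 5 lower for ETS and FET genes (fewest lower without EF library 2). Calls in the summed fit came to 1 higher and 0 lower for sex chromosome genes. Dropping 1 of the 4 libraries gave calls of 2 to 4 higher and 0 lower for sex chromosome genes (fewest higher without EF library 1). Summing the EF and hr pairs left Myl9, Chst11, Zfp423 and Xist past the threshold (edgeR adjusted p 0.0299 to 0.0485). Kdm6a fell short of it (adjusted p = 0.0652). No call among these 5 was lost when 1 of the 4 libraries was left out (edgeR adjusted p up to 0.016).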

How the data were processed

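Poly(A)-enriched RNA of 8 libraries of experiment 2 was analysed, 2 with the genotype label EF, 2 with ha and 4 with hr. The deposited values are expected counts, the authors' estimates of reads per gene, which can have decimals. Per the submitters' processing notes, STAR and RSEM were used with GRCm38.p6; no versions are listed. The sources used here give neither the annotation release nor the strand setting, so overlapping or antisense genes may share reads, and values of near-identical copies such as Ifit3 and Ifit3b, or pseudogenes, are uncertain. Expected counts were rounded to whole numbers; 8.25% were not whole, and library totals moved by at most 0.000579%.

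filterByExpr of edgeR, by group and at a minimum count of 10, kept 13998 of 55471 genes. Libraries were scaled by TMM, and ha was compared with EF by edgeR's two-sided quasi-likelihood test (glmQLFTest after a robust glmQLFit) in 1 fit of all 8 libraries with 5 residual degrees of freedom. P-values were adjusted by Benjamini-Hochberg over all genes tested, with a threshold of 0.05, and a gene past it is said to have risen or fallen. The versions were edgeR 4.0.16, DESeq2 1.42.0 and limma 3.58.1, in R 4.3.3. A fold change carries an approximate standard error on the log2 scale. It was taken as the size of the log2 fold change divided by the square root of the test's F statistic. Levels are TMM-normalised CPM per library, library 1 before library 2. The scripts were tested on simulated counts. A gene with no count in EF is given as a lower bound against a floor of 3 counts over both EF libraries; ratios on 1 to 3 counts carry an exact 95% interval, and both cover counting error only.

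Genes named are the 12 of largest fold change each way whose EF and ha values do not overlap and that have at least 10 CPM in the higher group, of which those with Gm or Rik names were left out and not all are described, the 10 of largest CPM difference in each direction, and members of 51 gene lists by p-value or role. A few genes that the rule takes are not reported here. Some genes were further picked because their call held in more settings, so statements that named calls held follow in part from that choice. Members, lists and this rule were chosen with earlier results of these data known. Comparisons of ha and of hr with EF share the EF libraries, so values of hr are given for orientation. Alternatives were size factors of DESeq2, a filter at 5 CPM or none, a fold threshold, only the 4 libraries compared with and without a replicate block, each library left out, DESeq2's Wald test, limma-voom, and the EF and hr pairs summed.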

Additional observations from a re-analysis of the deposited data

How the results depend on the processing

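Of the alternatives to the 5961 calls (3214 higher, 2747 lower), 3 kinds moved the count by over 1.5 times. With a fold threshold (edgeR, log2 fold change over 1), 1339 genes were called, 971 higher and 368 lower, and the higher genes made up 72.5% of calls in place of 53.9%. With the EF and hr pairs summed, 736 genes were called, 438 higher and 298 lower. With each library left out in turn, 3070 to 5481 genes were called, 1601 to 2905 higher and 1469 to 2582 lower; the lowest count came without EF library 1, and 3041 of its 3070 calls were also called with all libraries. Fitting only the 4 libraries compared gave 5597 calls, and adding the replicate block to that fit gave 5529, 2986 higher and 2543 lower. The differences between library 1 and 2 of EF and of ha had a correlation of -0.0395 across 10573 genes. This does not settle whether the title numbers pair the libraries. The EF libraries differed by 1.3 times counting noise, which keeps any such correlation near 0. DESeq2 size factors, no filter, the stricter filter, DESeq2's Wald test and limma-voom gave 5195 to 6196 calls, and no gene called in the main fit changed sign and stayed called in any setting. Of 615 called genes of the lists, the named genes and the neighbours of Yap1, 154 kept their call with the pairs summed, 347 without EF library 1 and 351 without EF library 2. With 1 EF library, the spread of that group is assumed to be that of ha and hr. A total of 11195371 to 16378368 counts limits genes under about 10 counts, for which only bounds or wide intervals can be given.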

Other observations

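Genes near Yap1 and the chromosomes were read for their medians, as a description. Within 10 Mb of Yap1 on chromosome 9, 13 of 49 tested genes were called higher and 12 lower, with a median log2 fold change of -0.02. These counts are to be read against the 23.0% higher and 19.6% lower calls over all genes tested. Of the genes named below, Pgr lies 968 kb and Sesn3 6343 kb from Yap1, measured between their lower coordinates. The neighbours Birc2 and Birc3, inhibitors of apoptosis, rose. Birc3 went from 2.40 and 3.11 to 13.3 and 13.4 CPM (log2 fold change 2.27 ± 0.25, edgeR adjusted p = 0.000624). Birc2 rose from 29.5 and 29.9 to 51.7 and 56.8 CPM (log2 fold change 0.87 ± 0.12, edgeR adjusted p = 0.00151). Cep126, a centrosomal protein, fell from 9.76 and 9.50 to 0.805 and 2.83 CPM (log2 fold change -2.36 ± 0.72, edgeR adjusted p = 0.0317). Pgr, the progesterone receptor, had 3 counts in EF and 43.2 and 113 CPM in ha, a ratio of 649.6 (95% interval 222 to 3152) (edgeR adjusted p = 0.000461). Sesn3, a sestrin that restrains TORC1, rose from 10.9 and 12.2 to 410.5 and 412 CPM (log2 fold change 5.15 ± 0.20, edgeR adjusted p = 1.67e-05), with 29.5 to 41.4 CPM in hr. When repeat pairs were summed, Pgr and Sesn3 passed the threshold (edgeR adjusted p 0.0132 to 0.0299). Birc3, Birc2 and Cep126 fell outside it (adjusted p 0.0515 to 0.119). The call of Cep126 did not hold without EF library 1 or without EF library 2 or without ha library 1 (edgeR, adjusted p 0.0959 to 0.138).

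Over the 10573 genes whose mean reached 5 CPM, the median log2 fold change was -0.02, with 2332 called higher and 2484 lower. Chromosome 14 had a median of 0.41, with 144 of 348 genes higher and 24 lower, and chromosome 18 a median of 0.39, with 105 of 276 higher and 17 lower. Chromosome 7 had a median of -0.34, with 73 of 736 genes higher and 271 lower, and chromosome 16 a median of -0.29, with 49 of 340 higher and 132 lower. The medians of hr against the same EF libraries were 0.35 on chromosome 14, 0.44 on chromosome 18, -0.14 on chromosome 7 and -0.27 on chromosome 16. Copy number was not measured, and its part in these medians was not tested.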
